A study of Mus musculus with 81 samples.

Results

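ES cell sites lost after 9h are open chromatin sites of mouse embryonic stem (ES) cells that were still open 9 h into conversion to epiblast-like cells (EpiLC) and no longer called at 48h. A member is a peak of the 0h bulk list that overlaps a 9h bulk peak by 1 bp or more and overlaps no 48h bulk peak. The rule found 33424 members among 154235 peaks of the 0h bulk list, which is 21.7%, and among 391928 regions merged over every peak list of the series. The other 0h bulk peaks fell into 26566 without a 9h or 48h peak (lost by 9h), 87758 with both (kept), and 6487 with a 48h peak and no 9h peak. Members were thus selected on the bulk peaks of 0h, 9h and 48h, and bulk accessibility at those times is given as a description and is not tested.

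ATAC-seq maps open chromatin by where a transposase inserts into DNA. Repli-ATAC-seq limits this map to DNA made during a short pulse of EdU, a thymidine analogue by which fresh strands can be pulled down. Replication removes bound factors and nucleosomes from the template, and open sites have to be set up again on the daughter strands. ES cells in inhibitors and LIF resemble the naive epiblast before implantation, and FGF2 with activin A moves them towards the formative state after it, when enhancers of naive pluripotency factors such as ESRRB and TFCP2L1 are known to be switched off.

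The ES course used WT 129/Ola cells, grown without serum in N2B27 with 3 µM of a GSK3 inhibitor, 1 µM of a MEK inhibitor and LIF, in which 250 nM of an FGFR inhibitor replaced the MEK inhibitor 24 h before induction. EpiLC induction was on fibronectin in N2B27 with 10 ng/mL FGF2 and 20 ng/mL activin A, and samples were taken at 0h, 9h and 48h. A 10 min pulse of 20 µM EdU marked replicating DNA, which was collected at the end of the pulse (nascent) or at 2 h since label, with 10 µM thymidine in between (mature). The unbound DNA of the capture gave the bulk list, so bulk and captured lists of a time can come from the same cells. Fibroblast samples came from mouse embryonic fibroblasts (MEF) of the strain Black6-129X1/SvJ, heterozygous (het) for each of 3 alleles, Col1a1::tetOP-OKSM, R26-M2rtTA and Oct4GFP, in which 2 µg/mL doxycycline switches on the reprogramming factors OKSM; LIF and ascorbic acid were present in all of them. They were sampled at 6h, 12h and 36h, at 60h in the fractions Q1 to Q4 of a CellTrace Violet sort for cell division, and at 14h with or without 5 µg/mL aphidicolin, a DNA polymerase inhibitor added at 4 h for 10 h. Each of the 27 groups holds 3 samples, but the ES course gives 1 peak list per group, so its intervals (Wilson or Newcombe, 95%) cover counting error only and depth is unknown.

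Few members reach a promoter, and 6 that do are shown so that the letters behind the motif counts can be seen. Of 32851 RefSeq promoter windows (GRCm38.p6, the coordinates of mm10; 250 bases before to 50 after an annotated start), members touched 468 and held 123 whole. Among the genes of the lists used here, members touched windows of 3: Nr5a2 and Esrrb, which encode nuclear receptors of the naive network, and Pim1, a kinase gene and target of STAT3. The Nr5a2 and Pim1 windows are shown with those of Radil, the strongest member that holds a whole window of a gene outside the lists, and of Nlrp4a, the fourth strongest. Adtrp and Lrrc2 are the strongest further members with the letters AGGTCA. Capitals mark matches to 12 short motifs on either strand, and each line gives the part of the 250 upstream bases that lies inside the member. The stretches of Lrrc31 and Tmem39a, whose members rank between those of Radil and Nlrp4a, held none of these motifs and are not shown.
Nr5a2, chr1:136953631-136953880, minus strand: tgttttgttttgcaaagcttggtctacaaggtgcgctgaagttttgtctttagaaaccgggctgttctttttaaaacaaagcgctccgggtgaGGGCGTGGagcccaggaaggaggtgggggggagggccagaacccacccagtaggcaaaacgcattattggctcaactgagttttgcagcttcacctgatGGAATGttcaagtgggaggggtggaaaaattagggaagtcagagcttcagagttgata
Pim1, chr17:29492835-29493084, plus strand: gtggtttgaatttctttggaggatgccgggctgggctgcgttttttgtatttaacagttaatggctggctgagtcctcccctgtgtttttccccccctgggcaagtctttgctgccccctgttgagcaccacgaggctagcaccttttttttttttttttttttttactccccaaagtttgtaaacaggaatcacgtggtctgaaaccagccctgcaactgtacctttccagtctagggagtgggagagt
Radil, chr5:142545028-142545277, minus strand: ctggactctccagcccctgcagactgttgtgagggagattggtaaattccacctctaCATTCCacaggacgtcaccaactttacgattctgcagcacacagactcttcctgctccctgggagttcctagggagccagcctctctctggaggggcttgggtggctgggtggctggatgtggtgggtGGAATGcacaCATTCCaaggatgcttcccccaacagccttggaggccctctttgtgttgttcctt
Nlrp4a, chr7:26435364-26435613, plus strand: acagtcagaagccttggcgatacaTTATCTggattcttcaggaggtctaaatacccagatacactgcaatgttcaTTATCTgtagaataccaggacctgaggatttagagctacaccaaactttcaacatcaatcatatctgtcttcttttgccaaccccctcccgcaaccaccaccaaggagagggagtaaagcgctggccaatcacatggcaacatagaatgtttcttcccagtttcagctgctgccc
Adtrp, chr13:41847617-41847866, minus strand: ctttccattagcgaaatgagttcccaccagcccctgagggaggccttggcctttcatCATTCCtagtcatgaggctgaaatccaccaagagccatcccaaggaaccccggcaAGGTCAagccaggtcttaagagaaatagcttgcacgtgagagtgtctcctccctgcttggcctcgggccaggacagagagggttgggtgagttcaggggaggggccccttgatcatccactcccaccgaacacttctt
Lrrc2, chr9:110951337-110951544, plus strand: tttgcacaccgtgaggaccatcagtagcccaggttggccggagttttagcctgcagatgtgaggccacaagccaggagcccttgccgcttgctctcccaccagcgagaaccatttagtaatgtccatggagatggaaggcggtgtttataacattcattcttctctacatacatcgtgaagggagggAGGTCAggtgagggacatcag

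The Nr5a2 stretch holds a KLF core (GGGCGTGG) and a TEAD core (GGAATG), the Radil stretch holds 3 TEAD cores, and the Nlrp4a stretch holds 2 GATA cores (AGATAA, here as TTATCT). The Adtrp and Lrrc2 stretches were chosen for the nuclear receptor half-site AGGTCA, and Adtrp also has 1 TEAD core. The Pim1 stretch holds none of the 12 motifs, which says only that these letters are not there. All 6 members had a mature peak at 0h, 4 of them (Nr5a2, Pim1, Radil and Nlrp4a) also had a mature peak at 9h, and Radil alone of the 6 had a nascent peak at 0h. Nlrp4a also had a mature peak at 48h. The member at the annotated start of Esrrb (chr12:86361088-86361317) had no nascent or mature peak at any time.

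Promoter windows inside members differed in base composition and in short motifs from those inside kept sites. Members held at least 150 of the 300 bases of 335 windows (304 gene symbols), with a median GC content of 50.3%, against 62.0% for 15125 windows inside kept sites, 51.0% for 192 windows inside sites lost by 9h and 52.7% for all windows. The half-site AGGTCA, which orphan receptors such as ESRRB and NR5A2 bind, was in 91 of the 335 member windows, or 27.2% (22.7 to 32.2%), against 11.6% of kept windows and 16.3% of all windows. With kept windows weighted to the members' GC content in bins of 5 percentage points, their share was 16.0% and the difference 11.1 points (6.21 to 16.0 points). With all windows weighted in the same way the difference was 7.11 points (2.31 to 11.9 points).

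For the other 11 motifs the differences were smaller. The AP-1 letters TGANTCA were in 12.5% of member windows against 7.75% of kept windows and 9.20% of all windows, both at equal GC. The difference from kept windows was 4.79 points (1.13 to 8.45 points), but the interval against all windows at equal GC included 0 (-0.235 to 6.90 points). The ZIC core CAGCAGG was in 15.5% of member windows against 11% of kept windows at equal GC (difference 0.539 to 8.52 points) and 11.5% of all windows at equal GC (difference 0.148 to 7.96 points). The intervals against kept windows at equal GC included 0 for the other 9 motifs. For these 9, the shares of member windows, kept windows at equal GC and all windows at equal GC are given in that order. The octamer ATGCAAAT was in 2.39%, 4.11% and 1.90%, and the SOX core ACAATGG in 5.37%, 3.26% and 4.46%. The KLF core was in 3.28%, 5.03% and 2.93%, and the STAT3 palindrome TTCCNGGAA in 2.09%, 1.43% and 1.34%. The octamer and KLF shares of members were thus below those of kept windows and above those of all windows. The extended ESRRB half-site TCAAGGTCA, which contains AGGTCA, was in 5 member windows (1.49%), in 0.411% and in 0.583%. The TCF/LEF core CTTTGAA was in 4.48%, 5.91% and 6.03%, and the OTX core GGATTA in 7.76%, 8.79% and 8.45%. The TEAD core was in 19.7%, 16.0% and 17.6%, and the GATA core in 11%, 11.4% and 12.8%. Both strands were searched, windows of 1 gene can overlap, the intervals are not adjusted over the 12 motifs, and a match is not evidence of binding.

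Members were weaker and narrower peaks than kept sites. The median 0h bulk score, the peak caller's own value and used here only within a list, was 323 for members, 835 for kept sites and 150 for sites lost by 9h. Median widths were 406, 540 and 281 bp. Of the members, 1206 were in the highest of 10 equal score groups (deciles) of the 0h bulk list and 3255 in the lowest. At 9h, 68.6% of members were in the lower 5 deciles of the 9h bulk list, against 28.6% of kept sites. The rule's edge touched few peaks: 102 members overlapped their 9h peak by 50 bp or less, and 112 peaks were kept out by a 48h overlap of 50 bp or less.

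Members lay away from genes' ends. A total of 1506 members (4.51%, 4.29 to 4.73%) were within 1 kb of an end of a protein-coding gene model, against 19.3% of kept sites and 3.90% of sites lost by 9h. The gap to kept sites was present in every decile of 0h score and was widest in the highest, where 2.99% of members and 48.7% of kept sites were near a gene end. The median distance to a gene end was 22077 bp for members and 12634 bp for kept sites, and 54.1% of members touched a gene model against 58.7%. The share of 0h bulk peaks that were members ranged over the autosomes from 19.8% on chromosome 19 to 23.8% on chromosome 14, and was 19.6% on X. Within 10 kb of a member there was another member for 46.2%, with 708 runs of 4 or more and the longest runs, of 12, near Adk, Ak4, Usp48 and Erich1. The shares were 70.5% for kept sites (5308 such runs) and 35.4% for sites lost by 9h (257 runs). The order of these shares is the order of the class sizes, and the part of class size was not tested. Of 1005 miRNA hairpins, 15 were touched by a member and 198 by any 0h bulk peak.

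Captured chromatin of the same time course, which the rule did not use, had peaks at members more often at 0h and 9h than at 48h. Its lists can come from the same cells as the bulk lists on which members were selected, so these shares are a description. Mature peaks covered 35.7% of members at 0h (35.1 to 36.2%), 48.2% at 9h (47.7 to 48.8%) and 3.99% at 48h (3.79 to 4.21%). Kept sites had a mature peak in 57.0%, 74.9% and 65.5%, and sites lost by 9h in 10.8%, 4.45% and 1.28%. Over all 0h bulk peaks the mature shares were 42.4%, 54.2% and 39.4%. The mature lists differed in length, with 66518 (0h), 94946 (9h) and 75941 (48h) peaks, and the part of list length in the higher 9h share was not tested. Nascent peaks were rarer at members, at 3.28% (0h), 2.11% (9h) and 0.655% (48h), against 20.0%, 19.6% and 27.7% of kept sites. Over all 0h bulk peaks the nascent shares were 12.2%, 11.6% and 16.1%. The nascent lists held 19314, 18587 and 27693 peaks. The order of the nascent shares at 0h and 9h depended on the overlap required: with 50% of the 0h peak covered they were 1.71% (0h), 1.88% (9h) and 0.875% (48h), and with captured peaks of score 100 or more 1.38%, 0.703% and 0.0628%. The 48h mature share was 7.29% and 1.4% under these settings.

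**Figure D1:**
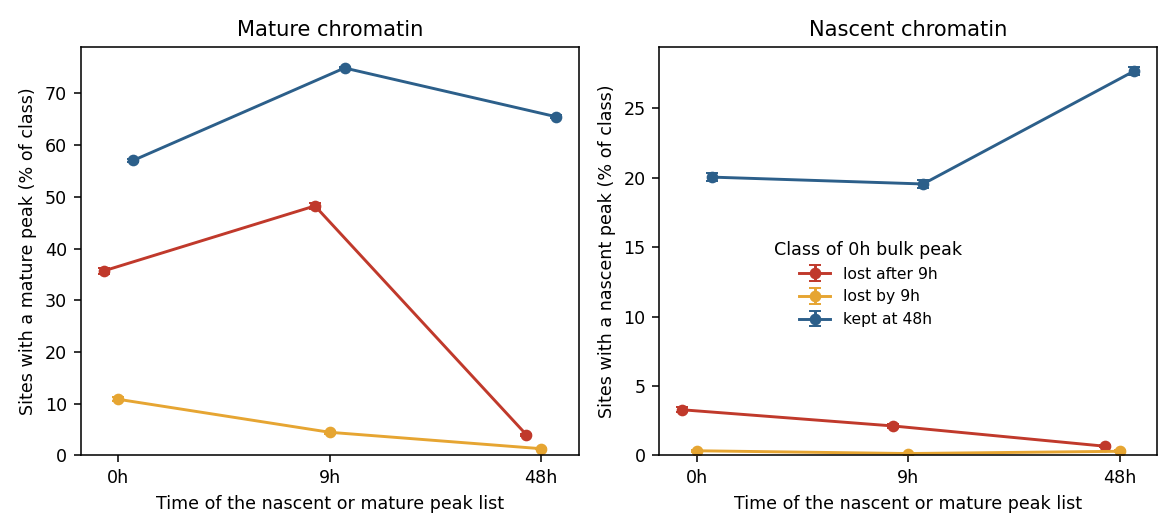
Share of each class of 0h bulk peak (vertical axis, percent) with a mature (left) or nascent (right) peak in the lists of 0h, 9h and 48h (horizontal axis); points are shares and bars Wilson 95% intervals, which cover counting error only. Sites lost after 9h (red) had mature peaks in 35.7%, 48.2% and 3.99%, between the other classes at 0h and 9h, and nascent peaks in at most 3.28%.

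Members split into 4 groups by their mature peaks at 0h and 9h. Both times had a mature peak at 8506 members (25.4%), 0h alone at 3411 (10.2%), 9h alone at 7618 (22.8%) and neither at 13889 (41.6%). Median 0h bulk scores of these groups were 925, 832, 231 and 202, so the members with a 0h mature peak were the strong ones. The share near a gene end was alike, at 4.23% to 4.62%. A nascent peak at both 0h and 9h was present at 235 members, at 0h and not 9h at 862 members (852 of them without a 48h nascent peak), and all 3 nascent lists had a peak at 12.

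Captured peaks were more frequent at strong sites, and members were therefore compared with kept sites in the same decile of 0h bulk score. The highest decile spans scores of 2712 to 48402, of which members reach 8934 and kept sites 48402. Strength inside that decile was therefore not equalised. Weighted to the members' deciles, kept sites had a 0h mature peak in 35.4%, a difference of 0.247 points (-0.341 to 0.835 points). In the highest decile the shares were 99.4% of 1206 members and 99.5% of 14147 kept sites. Single deciles differed both ways: in decile 8 members were at 78.7% and kept sites at 74.5%, and in decile 5 they were at 27.7% and 30.03%. Over 1 kb from gene ends, members at equal decile were higher by 1.27 points (0.664 to 1.88 points).

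Nascent chromatin differed already at 0h. At equal 0h decile a nascent peak was present at 3.28% of members and 7.45% of kept sites, a difference of -4.17 points (-4.40 to -3.94 points). In the highest decile, inside which strength was not equalised, 603 of 1206 members (50.0%) had a 0h nascent peak, against 75.7% of kept sites. The gap was smaller away from genes. Among sites over 1 kb from gene ends, the difference at equal decile was -1.97 points (-2.2 to -1.74 points), and in the highest decile the shares were 50.5% of 1170 members and 58.3% of 7264 kept sites, a difference of -7.77 points (-10.9 to -4.70 points).

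At 9h, before any member had left the bulk list, members already had captured peaks less often than kept sites of the same 0h score deciles. A 9h mature peak was present at 48.2% of members and 61.3% of kept sites weighted to the same 0h deciles, a difference of -13.0 points (-13.7 to -12.4 points). A 9h nascent peak was present at 2.11% and 8.25%, a difference of -6.13 points (-6.34 to -5.92 points), or -3.87 points over 1 kb from gene ends. In the highest decile the shares were 82.6% and 98.8%. The 9h nascent shares in that decile were 14.3% (172 of 1206 members) and 66.8%, and over 1 kb from gene ends 14.3% and 44.2%, a difference of -29.9 points (-32.2 to -27.5 points).

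Much of the 9h gap went with the 9h bulk signal itself. When kept sites were weighted to the members' 0h and 9h bulk deciles together, the difference in 9h mature peaks was -1.77 points (-2.47 to -1.08 points) and that in 9h nascent peaks -2.27 points (-2.47 to -2.07 points). At the same weights the 0h nascent difference was -2.24 points (-2.50 to -1.98 points) and the 0h mature difference 0.598 points (-0.0401 to 1.24 points). Over 1 kb from gene ends the 9h mature difference was -1.27 points and the 9h nascent difference -1.16 points.

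**Figure D2:**
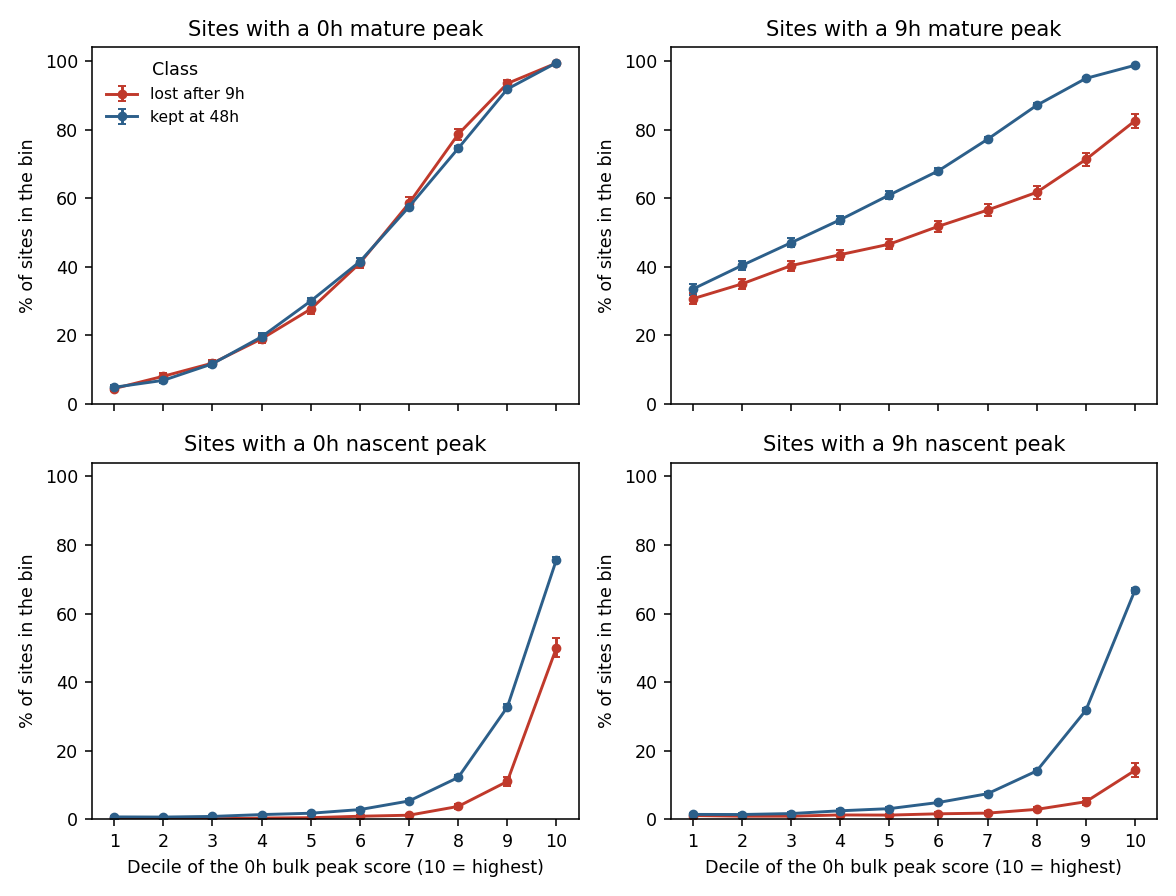
Share of sites with a 0h mature, 9h mature, 0h nascent or 9h nascent peak (vertical axes, percent) in each decile of 0h bulk score (horizontal axes); points are shares, bars are Wilson 95% intervals, red is sites lost after 9h and blue is kept sites. The 0h mature curves cross (78.7% of members and 74.5% of kept sites in decile 8, 27.7% and 30.03% in decile 5), while in the highest decile the 9h mature shares are 82.6% and 98.8% and the 9h nascent shares 14.3% and 66.8%.

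Retention of mature peaks from 0h to 9h was lower at members than at kept sites. Of 11917 members with a 0h mature peak, 8506 had a 9h mature peak, or 71.4% (70.6 to 72.2%), against 93.6% of kept sites and 13.2% of sites lost by 9h. At equal 0h decile the kept share was 89.8%, 18.5 points higher than that of members (17.6 to 19.4 points). At equal 0h and 9h deciles it was 74.4%, and the difference was -3.00 points (-4.10 to -1.90 points). Nascent retention from 0h to 9h was 21.4% of 1097 members (19.1 to 23.9%), against 73.7% of kept sites. This nascent comparison was not made at equal bulk score. Over each whole class, the median 9h bulk score was 192 for members and 639 for kept sites. From the 9h to the 48h mature list, 1053 of 16124 members (6.53%) had a peak, against 75.5% of kept sites; the rule fixed the 48h bulk state of both classes, so this is a description.

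The strongest members illustrate the range. The member with the highest 0h bulk score, 8934, was chr16:35483919-35485073 inside Pdia5, which encodes a protein disulfide isomerase; it had a nascent peak (score 219) and a mature peak (1040) at 0h and neither at 9h. The next, chr16:31424218-31425121 at Bdh1, which encodes a ketone body dehydrogenase, likewise had nascent (357) and mature (1804) peaks at 0h and neither at 9h. By contrast, chr8:79794454-79795360, nearest to Anapc10, a subunit gene of the anaphase-promoting complex, had a nascent peak at 0h and at 9h (353 and 212 in the respective lists) and a mature peak at both (2120 and 2185). Bulk scores in the 9h list were 224 at the Pdia5 site, 48 at the Bdh1 site and 4881 at the Anapc10 site. The absence of captured peaks at 9h thus went with a far lower 9h bulk score than at Anapc10.

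Other strong members were of both kinds or between them. Sites at Plekhh1 and Cacna1a, the latter a calcium channel gene, kept a mature peak at 9h without a nascent peak. A site nearest to Tmem64 had nascent and mature peaks at both times. Among the 235 members with nascent peaks at 0h and 9h, the next strongest were nearest to Nkx6-3, Foxd3, Ak4 and Hmgxb4. Foxd3 encodes a forkhead factor of pluripotent and neural crest cells, and its member lay 19060 bp from the gene. None of these 10 members had a nascent or mature peak at 48h.

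Loci of the naive pluripotency list held members more often than loci of genes at large. Of 221 0h bulk peaks within 10 kb of its 18 genes, 72 were members, or 32.6% (26.7 to 39.0%), against 21.0% over the loci of all protein-coding genes and 20.2% over all 0h bulk peaks of the same score deciles and position. A further 38 were lost by 9h and 107 were kept. Members were present at 16 of the 18 genes.

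Esrrb and Nr5a2, both nuclear receptor genes, had the largest numbers. Esrrb had 14 members among 45 peaks, of which 7 had a mature peak at 0h and 7 at 9h, and 2 had a nascent peak at 0h and none at 9h. The strongest lay at chr12:86503955-86504980, inside the gene, with a 0h bulk score of 4143 and mature peaks at 0h and 9h. Those with a 0h nascent peak were chr12:86454784-86456016 and chr12:86478549-86479722, and both had mature peaks at 0h and 9h. Nr5a2 had 11 members among 26 peaks, with 5 mature at 0h and 7 at 9h, and Nr0b1, which encodes the atypical receptor DAX1, had 2 among 3.

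Among transcription factor genes downstream of LIF and in the naive network, Tfcp2l1 had 7 members among 17 peaks. The strongest of them, chr1:118642351-118643195 (0h bulk score 3784), had nascent and mature peaks at both 0h and 9h, and chr1:118633653-118634127 had a nascent peak at 9h and not at 0h. Zfp42, the marker gene of naive cells also called Rex1, had 6 members among 10 peaks, and 2 of them had a nascent peak at 9h and none at 0h. Klf5 had 3 among 8, Klf4 had 1 among 5, and Tbx3 had 1 among 9. Prdm14, a repressor of FGF signalling in naive cells, had 5 among 16 peaks, of which 1, chr1:13127924-13128281, had mature peaks at 0h and 9h.

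Other naive genes held strong members. Tet2, which encodes an enzyme that oxidises 5-methylcytosine, had 6 members among 22 peaks, and the strongest, chr3:133524280-133525399, had a 0h bulk score of 7244, mature peaks at 0h and 9h and a nascent peak at 0h alone. Jam2, an adhesion molecule gene, had 8 among 16 peaks, of which 5 had mature peaks at 0h and 5 at 9h. Fbxo15 had 4 among 13 and Fgf4, the autocrine FGF ligand gene of ES cells, had 1 among 8. Over the 72 sites, 1 had a mature peak at 48h (chr8:43294314-43294908, at Zfp42) and none had a nascent peak at 48h.

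The core factors that both states share had no members: Nanog, Pou5f1 and Sox2 had 5, 6 and 5 kept sites among 6, 7 and 5 peaks. The formative genes Otx2 and Fgf5 also had none, and Dnmt3b, which encodes a DNA methyltransferase raised in EpiLC, had 1 among 7. Over the formative and EpiLC list the share was 13.5% (21 of 155, 9.04 to 19.8%), against 21.2% at the same strength and position. Of those 21, Etv5 held 6 and Etv4 held 5, and both genes are also on the list of FGF and ERK feedback.

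Of the signalling lists, LIF and STAT3 stood above its matched share, and the intervals of the others included theirs. The LIF and STAT3 list had 40 members among 147 peaks (27.2%, 20.7 to 34.9%, against 18.8% at the same strength and position), with 10 of 24 at Lifr and 5 of 11 at Il6st, the receptor subunits for LIF, and 7 of 17 at Tfcp2l1, which is also on the naive list. The share without Tfcp2l1 was not tested, so this list is not a result separate from the naive list. FGF and ERK feedback had 38 of 156 (24.4%, 18.3 to 31.7%, against 20.8%), with 11 of 36 at Spred2, an inhibitor of RAS signalling. The WNT and beta-catenin list had 36 of 219 (16.4%, 12.1 to 21.9%, against 21.2%), with 12 of 45 at Tcf7l1, the repressor that limits naive factors, and 11 of 36 at Tcf7l2. General pluripotency had 17 of 106 (16.0%, 10.3 to 24.2%, against 18.8%), including 6 of 15 at Rif1, 3 of 8 at Dppa2 and 2 of 9 at Tdgf1.

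Lists of other cell types ranged from below to above the share of all gene loci. The germ layer list had 7 of 67 (10.4%), fibroblast genes 6 of 77 (7.79%, 3.62 to 16.0%, against 21.4% at the same strength and position), macrophage and blood 3 of 31 and neural genes 2 of 34. Endothelial genes had 16 of 63 (25.4%, against 22.2% at the same strength and position), of which 9 were at Pecam1, a surface marker of endothelium that ES cells also express. Primitive endoderm and trophectoderm had 15 of 78 (19.2%, against 20.5%), AP-1 subunits 6 of 42 and ubiquitous promoters 13 of 67. Loci of neighbouring genes can overlap, so a peak can count in more than 1 list.

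**Figure D3:**
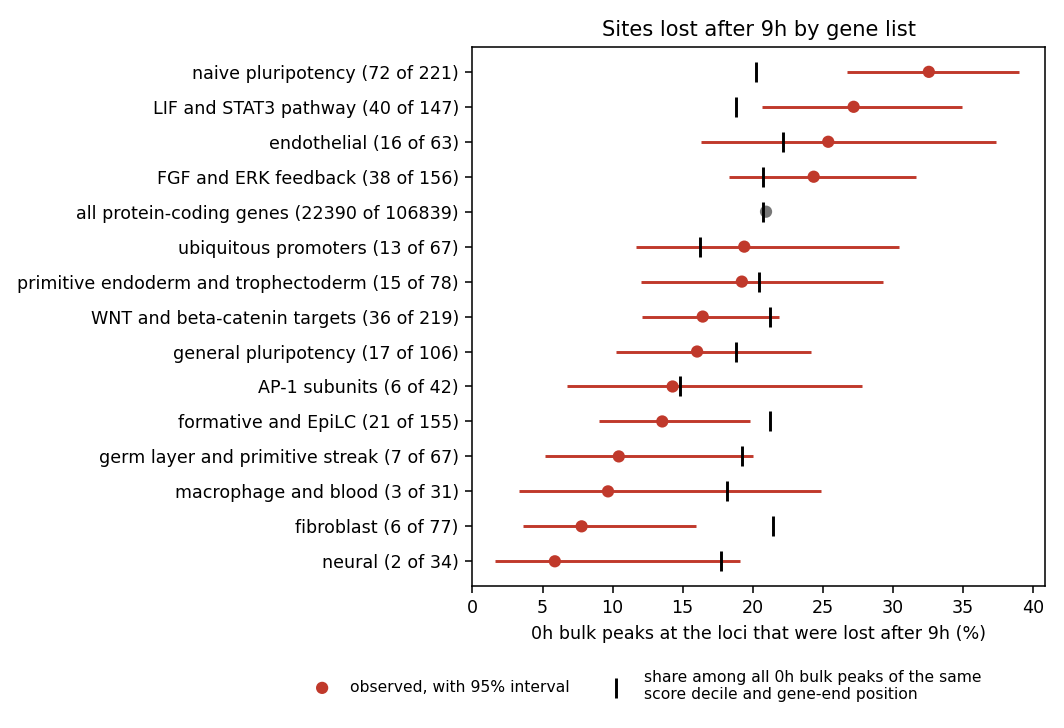
Share of 0h bulk peaks at the loci of each gene list that were lost after 9h (horizontal axis, percent; counts beside each list), with Wilson 95% intervals as lines and black ticks for the share among all 0h bulk peaks of the same score decile and gene-end position. The naive list is at 32.6% with its tick at 20.2%, the formative list at 13.5% with its tick at 21.2%, and all protein-coding genes (grey) at 21.0%.

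Long genes held the largest numbers. Magi1, a scaffold gene of cell junctions, had 39 members among 93 peaks, Ptprg, a receptor phosphatase gene, 38 among 91, and Msi2, Tenm3 and Cdh13 had 34 each among 103, 117 and 86. Smyd3 had 29, Slc39a11 and Dst 28 each, and Etl4 and Tenm4 27 each. Of the 39 at Magi1, 11 had a mature peak at 0h and 22 at 9h, and none had a nascent peak at 0h, 9h or 48h. At Tenm4, 43 peaks were lost by 9h, more than its 27 members.

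The ES labels were checked against marker promoters. Of 8 ES cell markers, 7 had a bulk peak at an annotated start at 0h, 9h and 48h, all but Prdm14. In fibroblasts at 6h, 4 of these 8 also had a start peak. The 5 primitive endoderm markers and the 3 macrophage markers had none at 0h, 9h or 48h. Fibroblast markers had a start peak at 3 of 8 in each of these lists (5 of 8 in fibroblasts at 6h), endothelial markers at 1 of 3 and neural markers at 1 of 3. Of 5 EpiLC markers, 4 had a peak at 0h, 9h and 48h alike, all but Pou3f1, so promoter peaks of these markers did not separate the times. In fibroblasts at 6h, 3 of these 5 had one, so start peaks are a weak check of cell type.

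In reprogramming fibroblasts, a minority of members was open. In the bulk lists of the nascent arm, 19.7% of members had a peak at 6h (19.3 to 20.1%), 26.4% at 12h and 23.4% at 36h, against 46.0%, 54.3% and 49.6% of kept sites. Over all 0h bulk peaks these shares were 33.4%, 40.3% and 36.2%, also a minority. In the bulk lists of the mature arm the shares were 23.0%, 24.7% and 23.8%. No fibroblast bulk or sorted list had a peak at 22744 members (68.0%), and all 6 bulk lists had one at 4990 (14.9%). List lengths differed (177275, 199056 and 137173 peaks in the nascent arm), and the part of length in the order of the times was not tested.

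Peaks at members were gained and lost in fibroblasts between 6h and 36h. Without a 6h peak in either arm, 1424 of 25559 members (5.57%, 5.30 to 5.86%) had a peak at 36h in both arms, against 6.92% of kept sites and 2.49% of sites lost by 9h. In the other direction, 1321 of 6577 members with a 6h peak (20.1%) had none at 36h in the nascent arm and 1532 of 7699 (19.9%) in the mature arm, against 7.26% and 8.02% of kept sites. Among the members in the highest 0h decile, 260 of 1206 (21.6%) had a fibroblast peak at 6h and 421 (34.9%) at 36h in the nascent arm, although the 36h list was the shorter. Kept sites of that decile were at 75.5% and 80.7%. In the lowest 0h decile the gap was smaller, with 14.2% of members and 17.2% of kept sites at 6h, and 14.6% and 16.7% at 36h. At 60h the sorted fractions Q1, Q2, Q3 and Q4 had peaks at 12.9%, 11.6%, 13.1% and 8.99% of members, from lists of 71163, 64930, 73518 and 57762 peaks; the order of the shares is the order of the list lengths. Captured fibroblast chromatin had mature peaks at 1.44% (6h), 10.3% (12h) and 6.10% (36h) of members, from lists of 14281, 62704 and 38418 peaks.

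**Figure D4:**
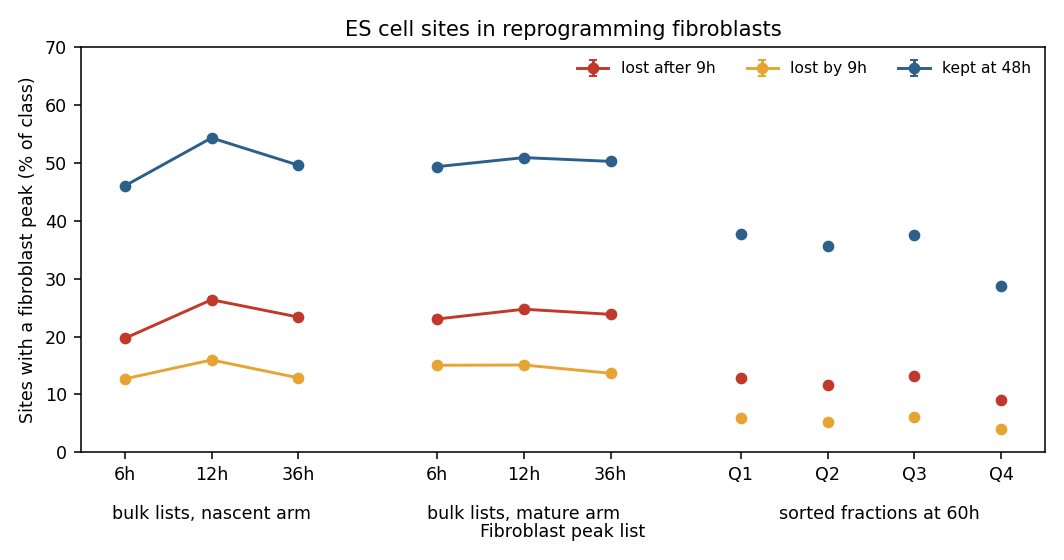
Share of each class of ES cell site with a peak in the fibroblast lists (vertical axis, percent): bulk lists of the nascent and the mature arm at 6h, 12h and 36h, and sorted fractions Q1 to Q4 at 60h (horizontal axis); points are shares and Wilson 95% intervals are mostly smaller than the points. Sites lost after 9h (red) were at 19.7%, 26.4% and 23.4% in the nascent arm and at 8.99% to 13.1% in the sorted fractions, between kept sites (blue) and sites lost by 9h (yellow).

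Blocking replication in fibroblasts was the one comparison with replicate values. The 3 untreated libraries had a peak at 19.5%, 19.7% and 18.7% of members, and the 3 aphidicolin libraries at 22.1%, 24.7% and 23.7%. The groups did not overlap, with means of 19.3% ± 0.492 (SD, n = 3) and 23.5% ± 1.31 (SD, n = 3) and a two-sided exact permutation p of 0.1, the smallest that 3 against 3 allows. The aphidicolin lists were longer, with 148292 to 163947 peaks against 116939 to 129546. With every list limited to the length of the shortest by score, the means were 17.9% ± 0.252 (aphidicolin, SD, n = 3) and 18.2% ± 0.576 (untreated, SD, n = 3), the groups overlapped, and the exact permutation p was 0.7.

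Read counts over 139000 fibroblast regions were tested with edgeR's quasi-likelihood test at a Benjamini-Hochberg adjusted p of 0.05. Members overlapped 7169 of these regions, and 7168 were tested. With aphidicolin, 1024 member regions were raised (14.3%) and 1448 lowered (20.2%), against 18% raised and 17.9% lowered among all 138996 regions tested and 35.9% called in either direction. The share of member regions called in either direction, 34.5%, was near that background. The median log2 fold change was -0.04 for member regions, 0.02 for all regions and -0.17 for regions at kept sites, of which 5.56% were raised and 33.2% lowered. With library totals in place of TMM scaling the median of all regions moved to 0.18, and 1769 member regions were raised and 641 lowered, so the split between directions depends on the scaling. Of member regions, 20.1% had a peak in all 3 aphidicolin lists and not in all 3 untreated lists, against 26.1% of all regions.

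Region strength went with the direction of the call. With all regions divided into 5 equal groups by mean log2 CPM (read counts scaled to library size), 21.0% of member regions in the lowest group were raised and 6.12% lowered, against 29.3% and 3.68% of all regions. In the highest group, 4.01% were raised and 48.2% lowered, against 2.46% and 53.3%. The share of member regions raised lay between those of kept sites and of all regions in the 4 lower groups.

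**Figure D5:**
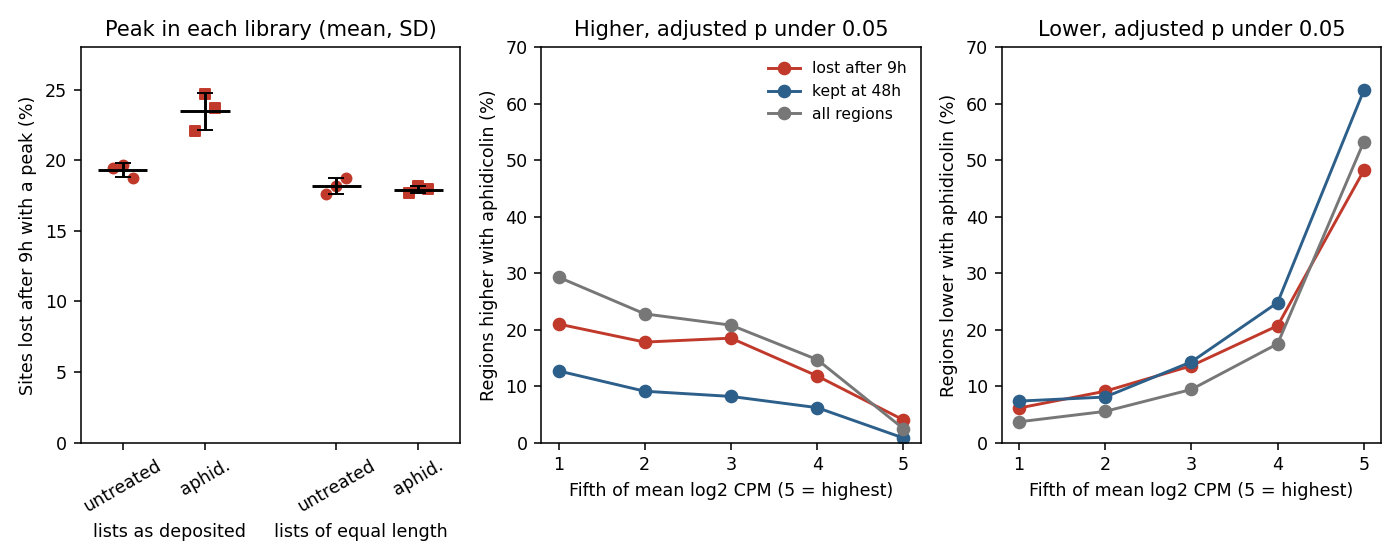
Left, share of sites lost after 9h with a peak (vertical axis, percent) in each untreated (circle) and aphidicolin (square) library, with mean and SD, for lists as deposited and at equal length; middle and right, share of regions raised or lowered by aphidicolin (vertical axes, percent; edgeR adjusted p under 0.05, TMM scaling) by group of mean log2 CPM, from low to high (horizontal axes) for regions at sites lost after 9h (red), at kept sites (blue) and all regions (grey). Means of 23.5% and 19.3% become 17.9% and 18.2% at equal length, and in the highest group 48.2% of regions at sites lost after 9h were lowered against 53.3% of all.

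Among member regions above the median level with groups that did not overlap, the largest rise was at chr14:86788562-86789136, where the nearest gene, Diaph3, an actin-nucleating formin gene, lay 133028 bp from the member. Its log2 CPM was 1.23, 1.19 and 1.56 untreated and 2.33, 2.34 and 2.41 with aphidicolin, and edgeR put the rise at 1.04 on the log2 scale, with SE 0.13 and adjusted p = 6.16e-05. The lack of overlap between groups was part of the choice. Over all 138996 regions tested, groups did not overlap at 33007 that were higher and 31818 that were lower with aphidicolin. The next rises were near Gm2808, Ptprd, Aoc1 and Ptchd4, with log2 fold changes of 0.93 to 1.00. The largest fall was at chr8:105469432-105469636 near Tppp3, which encodes a tubulin-binding protein: log2 CPM was 3.03, 3.05 and 2.88 untreated and 1.79, 1.98 and 1.78 with aphidicolin (log2 fold change -1.14, SE 0.11, edgeR adjusted p = 1.21e-05). Falls near Snx32, Sema4a, Phb and Plekha6 had log2 fold changes of -1.02 to -0.92.

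At the naive loci, 9 count regions overlapped members. By edgeR, 2 rose, 3 fell and 4 did not pass, against 18% raised and 17.9% lowered over all regions; 9 regions are too few to set against that background. At the Esrrb site chr12:86466249-86466438, log2 CPM was 0.21, 0.08 and 0.39 untreated and 0.77, 0.80 and 1.05 with aphidicolin, with no overlap (log2 fold change 0.67, SE 0.18, edgeR adjusted p = 0.00765). This region was in the lowest of the 5 groups of mean log2 CPM, where 29.3% of all regions were raised. At the Jam2 site chr16:84779776-84780128, log2 CPM was 2.81, 2.96 and 2.96 untreated and 2.2, 2.24 and 2.58 with aphidicolin (log2 fold change -0.57, SE 0.11, edgeR adjusted p = 0.00119). The other rise was at Fbxo15 (0.43) and the other falls at Fgf4 (-0.32) and Tet2 (-0.49, at chr3:133506658-133506847). The strongest Tet2 member was level, with 4.32, 4.39 and 4.57 untreated and 4.46, 4.51 and 4.61 with aphidicolin (log2 fold change 0.10, edgeR adjusted p = 0.385), and the Tfcp2l1 region did not pass either (-0.21, edgeR adjusted p = 0.272).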

How the data were processed

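Chromatin accessibility was measured in 81 samples of 27 groups. Per the submitters' processing notes, the tools named are MACS2 2.2.0, Bowtie2 2.2.5, cutadapt 2.2.0, bedtools 2.26.0, SAMtools 1.4.1 and bcl2fastq 2.19.1, with the build mm10. Any shift of reads for the transposase cut, and whether ES course replicates were pooled, are not given in the sources used here; peak names in the fibroblast course lists speak of merged replicates. All deposited peak lists give each peak's position and the peak caller's score (30 or more in the 0h bulk list). For aphidicolin, the authors' table holds unscaled read counts of 6 libraries in 139000 regions, with totals of 41183769 to 49440524 (untreated) and 55158844 to 78677381 (aphidicolin); the numbers in its column names are not tied to samples. No pair of these libraries agreed within sampling noise (lowest chi-square over its degrees of freedom, 1.88). The labels do not say whether replicates were separate cultures, so the p-values reflect spread among these samples, which may be technical.

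Overlap was 1 bp or more. Score deciles are of the 0h or 9h bulk list. Gene positions came from 21887 protein-coding models of GRCm38.p6, without strand, so an end is either end, near is within 1 kb, and a locus reaches 10 kb past both ends. Counts were tested with edgeR 4.0.16 in R 4.3.3 (TMM, filterByExpr, glmQLFit, glmQLFTest, two-sided, Benjamini-Hochberg over 138996 regions) after a test on simulated data; printed log2 CPM has a prior count of 2. Alternatives were DESeq2 1.42.0, other scalings, filters and overlaps, and leaving out each library. List shares used Python 3.11.15. The motif search planned at the middle of each peak was not run without a genome; the promoter windows and their GC weighting were added after the data were seen.

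Members and gene lists were chosen with earlier results of these data known. Named genes are, at the naive loci, up to 12 with most members; up to 3 for each other list; the 10 loci with most members; the 6 strongest members, and the 6 strongest with nascent peaks at 0h and 9h; up to 5 regions per direction for aphidicolin; and 12 set genes. Sequences printed, and the regions at naive loci, were chosen after their values were seen.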

Additional observations from a re-analysis of the deposited data

How the results depend on the processing

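The number of members was 29343 to 42291 over its 4 alternatives. Requiring 50% of the 0h peak to be covered, for the rule and the other lists, gave nascent shares of 1.71%, 1.88% and 0.875% and mature shares of 37.2%, 54.5% and 7.29% at 0h, 9h and 48h, mature retention of 78.4%, fibroblast shares of 14.7%, 19.6% and 19.5% at 6h, 12h and 36h, and member shares of 45.2% at naive loci and 26.7% at all gene loci. With captured peaks of score 100 or more only, nascent shares were 1.38%, 0.703% and 0.0628%, mature shares 24.9%, 33.1% and 1.4%, and retention 63.7%. With 0h bulk peaks of score 100 or more only, the 0h nascent share was 3.70%, the 0h and 9h mature shares 39.9% and 50.6%, the fibroblast shares 20.3%, 27.3% and 24.5%, and the share at all gene loci 20.7%. With 50 kb on each side that share was 21.3%. The bulk lists of the mature arm gave fibroblast shares of 23.0%, 24.7% and 23.8%. The share near gene ends was 9.67% within 2.5 kb and, added after seeing the data, 3.03% within 1 kb of annotated starts. The difference in mature retention at equal 0h and 9h deciles stayed below 0 in all its alternatives (-3.01 to -2.02 points).

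The aphidicolin difference in peak share, 4.17 points, was -0.238 points at equal list length, a reversal, and 3.58 to 4.88 points without each library in turn. Counts of member regions raised and lowered were 1769 and 641 with library totals, and 922 were lowered in regions with a peak in all 6 lists (16.4%, against 15.8% of all such regions). Leaving out each library in turn gave 587 to 1298 raised and 931 to 1631 lowered: without untreated b 944 were lowered, without aphidicolin b 587 were raised and 931 lowered, and without aphidicolin c 607 were raised. The fit with the column number as a replicate block called 1252 raised and 1758 lowered. Same-numbered libraries had correlations of deviations of 0.263, 0.0125 and 0.154, so the numbers were not taken as pairs. DESeq2 called 792 raised and 1342 lowered. The motif alternatives (whole peak, score of 100 or more) were not run without a genome. The lengths of the captured lists limit all shares of the ES course, and no replicate spread is known for them.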
